A study of Mus musculus with 221 samples.

Results

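Zfp352 and Tdpoz1 to Tdpoz5 were followed in single early 2-cell mouse embryos whose fathers had eaten food high in fat (HFD) or low in fat (LFD). The 6 genes were taken by their symbols, with earlier results of these data known, and all 6 were found among the 55291 genes of the count table. Of the libraries, 99 came from LFD embryos and the rest, 55.2%, from HFD embryos, each made by in vitro fertilization and copied by the Smart-seq2 protocol, which amplifies polyadenylated RNA from 1 embryo. In both groups the nuclear genome was C57BL/6N and the mitochondrial DNA was that of the Staudach (ST) line, brought in by the oocyte, and the sires were C57BL/6N males fed either diet for a short time before their frozen sperm was used. The LFD embryos are the control group. Per the study's methods only a few males of each diet were used. The labels do not tie an embryo to its sire or fertilization date. Every p-value, standard error (SE) and interval below therefore counts embryos of 1 sire as independent. The comparison asks whether the diet of the father leaves a trace in these genes of early genome activation.

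In the mouse the embryo switches on its own genome in earnest at the 2-cell stage, and for a short time it transcribes endogenous retroviruses such as MERVL together with genes that lie beside retrotransposon sequence or use it as a promoter. Zfp352 encodes a zinc-finger protein and is a widely used marker of that stage. The Tdpoz genes encode proteins that join a TRAF-like (MATH) domain to a POZ (BTB) domain, the build of SPOP, an adaptor that brings substrates to the cullin 3 ubiquitin ligase; they form a cluster of near copies, most of them with a single exon, and their transcripts are likewise found in 2-cell embryos.

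The promoters are shown first. The counts measure RNA levels and not how strongly a promoter drives transcription. Both windows run from 250 bases before to 50 bases after the annotated start (RefSeq, build GRCm38.p6), and the capitals mark TAATCC, the core that bicoid-type homeodomain proteins such as OTX and OBOX factors recognise. The Zfp352 window lies at chr4:90218570-90218869 on the plus strand and the Tdpoz1 window at chr3:93676234-93676533 on the minus strand.
Zfp352: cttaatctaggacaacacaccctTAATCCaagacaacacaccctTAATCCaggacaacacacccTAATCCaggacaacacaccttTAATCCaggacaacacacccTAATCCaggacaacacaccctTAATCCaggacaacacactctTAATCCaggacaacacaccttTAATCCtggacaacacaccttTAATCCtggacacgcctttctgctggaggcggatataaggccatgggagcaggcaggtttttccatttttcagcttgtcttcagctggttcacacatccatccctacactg
Tdpoz1: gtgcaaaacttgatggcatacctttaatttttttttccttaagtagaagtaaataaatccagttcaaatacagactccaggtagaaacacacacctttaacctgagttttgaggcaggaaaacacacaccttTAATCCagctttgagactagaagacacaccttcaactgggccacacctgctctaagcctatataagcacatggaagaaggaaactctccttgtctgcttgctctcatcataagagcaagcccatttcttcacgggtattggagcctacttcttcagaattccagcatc
Read on both strands, TAATCC occurred 9 times in the Zfp352 window, always in the sense orientation, with first bases from -227 to -61 relative to the start. The matches followed each other at steps of 20 bases (2 steps) or 21 bases (6 steps), so the matches lie in a tandem repeat. No other window held as many. TAATCC was present in 7.06% of the 32851 promoter windows and occurred 2 or more times in 0.359%, and the next richest window, that of Gtf2ird1, held 4. Tdpoz1 had 1 match, at -118. TATAA, searched in the sense orientation only and present in 17.5% of windows, began at -28 in Zfp352 and at -58 in Tdpoz1. These places are counted from the RefSeq start. The Tdpoz1 gene of the count table begins farther upstream, at chr3:93676310, so its TATAA lies nearer to that start. The window of Tdpoz4 held neither TAATCC nor TATAA, and that of Tdpoz5 held only a TATAA at -88. The gene models of both begin at the start codon, so these windows need not be promoters. A match of letters is a description and not evidence of binding.

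The 5 Tdpoz genes lie within 310 kb of chromosome 3, on both strands, and Zfp352 lies at chr4:90218820-90225702 on the plus strand, with 2 exons and 1653 coding bases. Tdpoz1 (chr3:93669333-93676310, minus strand) also has 2 exons, whereas Tdpoz2 (chr3:93651542-93652686, minus), Tdpoz3 (chr3:93826020-93827117, plus), Tdpoz4 (chr3:93796398-93797510, plus) and Tdpoz5 (chr3:93960292-93961314, minus) have 1 exon each. No other gene of the count table overlaps any of the 6 on either strand. How alike the copies are decides which of them short reads can tell apart, and the first 60 coding bases show it, with capitals at each base that differs from Tdpoz1.
Tdpoz1: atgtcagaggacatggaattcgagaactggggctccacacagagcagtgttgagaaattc
Tdpoz2: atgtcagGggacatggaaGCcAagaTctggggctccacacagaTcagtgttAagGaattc
Tdpoz3: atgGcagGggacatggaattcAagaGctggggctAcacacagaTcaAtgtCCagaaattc
Tdpoz4: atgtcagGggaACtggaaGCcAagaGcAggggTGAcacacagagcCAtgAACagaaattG
Tdpoz5: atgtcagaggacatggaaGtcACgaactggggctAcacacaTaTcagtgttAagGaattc
Over the aligned coding bases, identity between pairs of Tdpoz genes ran from 837 of 1095 identical bases (76.4%) for the least alike (Tdpoz3 and Tdpoz4) to 964 of 1095 identical bases for the most alike (Tdpoz1 and Tdpoz3). Outside the 5 there are closer copies. Every stretch of 150 bases of Tdpoz5, about the length of a read, also occurs in Tdpoz7, and the authors left out reads that align to several places. Tdpoz3 shared 33.4% of its 150-base stretches with transcripts of other genes, Tdpoz1 12.4%, Tdpoz2 8.84% and Tdpoz4 6.54%. The genes that held the most of these stretches were Gm4982, Gm9117, Gm5773 and Tdpoz8, in that order. Zfp352 shared none. The counts of Tdpoz1 to Tdpoz4 may therefore be understated by unequal amounts, and RNA of Tdpoz5 and of Tdpoz7 cannot be told apart.

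Total counts per embryo ran from 1937251 to 17246791 (median 5706066) and the genes with a count from 11364 to 21638 (median 18833); 8 libraries, 4 of each diet, had fewer than 15299 genes, more than 2 SD below the mean. The stage of the embryos was checked against marker lists. Of 61 other genes of the MERVL-linked 2-cell programme, 56 were in the table and 50 had a count in at least 50% of embryos, with a summed level of 11.28 to 13.18 (log2 of summed CPM, the counts in each 1000000 of a library) in HFD and 11.72 to 13.16 in LFD embryos. All 30 maternal oocyte transcripts found were likewise detected. On the same scale their sum had a mean of 15.60 ± 0.30 (SD) for HFD embryos, somewhat below the 15.73 ± 0.27 of LFD embryos. The lowest HFD embryo had 14.76 and the lowest LFD embryo 15.07. This difference was not tested. Of 12 macrophage markers, 6 had a count in at least 50% of embryos and none was at 0 everywhere, and their summed level ran from 3.09 to 11.77 (median 5.52) in HFD and from 3.13 to 6.52 (median 5.56) in LFD embryos, with the highest value in HFD embryo 41.

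Zfp352 was the most abundant of the 6 in 99.5% of all embryos. It ranged from 31.1 to 884 CPM in HFD embryos (median 487) and from 95.3 to 935 CPM in LFD embryos (median 492). The ranges overlapped almost wholly: 57 HFD embryos (46.7%) lay above the LFD median, and 1 HFD embryo, number 110, lay below the lowest LFD embryo. On the log2(CPM + 1) scale the means were 8.79 ± 0.59 (SD) in HFD and 8.88 ± 0.52 (SD, n = 99) in LFD embryos.

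Tdpoz1 led the 5 Tdpoz genes. It ranged from 27.1 to 409 CPM in HFD embryos (median 190) and from 20.4 to 358 CPM in LFD embryos (median 191), and 61 HFD embryos lay above the LFD median. Its means were 7.46 ± 0.66 (SD) in HFD and 7.47 ± 0.65 (SD, n = 99) in LFD embryos on the log2 scale. It supplied a median of 78.2% of the counts of the 5 Tdpoz genes, with a range of 51.7% to 98.9% over all embryos.

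Tdpoz3 followed, with 0 to 110 CPM in HFD embryos (median 27.9) and 0 to 81.5 CPM in LFD embryos (median 33.2). It was the member with the largest difference between the medians, and 51 HFD embryos (41.8%) exceeded the LFD median, whereas 5 passed the top LFD value. No count was found in 2 HFD and 1 LFD embryos. A count of 0 allows up to 3 counts, which is 0.174 to 1.55 CPM depending on the library and covers counting error only, since amplified reads are not independent molecules.

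Tdpoz4 and Tdpoz2 were lower still. Tdpoz4 had 0 to 50.9 CPM in HFD embryos (median 11.1) and 0 to 37.5 CPM in LFD embryos (median 10.5), with no count in 6 HFD and 1 LFD embryos. Tdpoz2 had 0 to 28.6 CPM in HFD embryos (median 7.36) and 0 to 30.3 CPM in LFD embryos (median 7.90), with no count in 8 HFD and 9 LFD embryos. The diets overlapped for either gene, and 1 HFD embryo exceeded the highest LFD embryo for Tdpoz4. Tdpoz5 had a median of 1 count in each group and none in 52 HFD and 35 LFD embryos, at or under the floor of 3 counts in 200 embryos of both diets together, and Tdpoz7, its copy in sequence, was as scarce (median 1 count, none in 70 embryos). No fitted fold change is given for Tdpoz5.

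**Figure D1:**
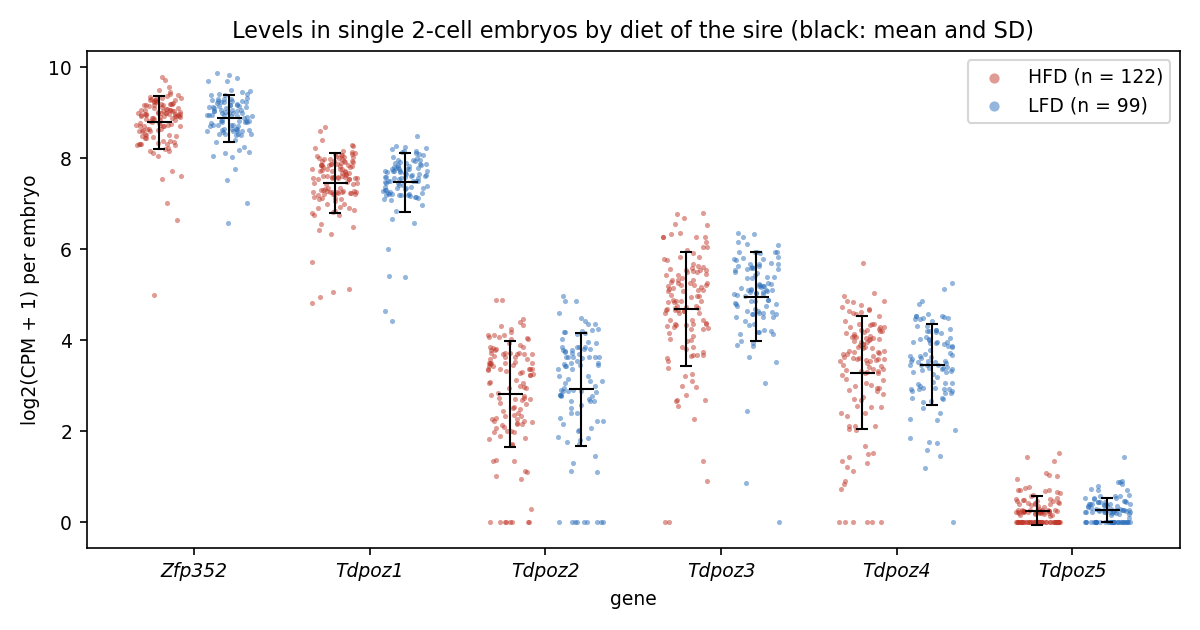
Level of each gene in every embryo as log2(CPM + 1), HFD embryos in red and LFD embryos in blue, with the mean and SD in black. The clouds of each gene overlap between diets; Zfp352 has means of 8.79 and 8.88, Tdpoz1 of 7.46 and 7.47, and a tail of low embryos is present in both groups.

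Levels can be compared between genes only per length, and here also only within what unique reads allow: Tdpoz3 shared 33.4% of its 150-base stretches with other transcripts against 6.54% for Tdpoz4, and Tdpoz5 shared all of them, so its place in the order does not measure its RNA. By the median CPM per kb of exon over all embryos the order was Zfp352, Tdpoz1, Tdpoz3, Tdpoz4, Tdpoz2 and Tdpoz5. The middle 50% of embryos held 172 to 253 CPM per kb of Zfp352, 63.6 to 98.4 of Tdpoz1, 17.6 to 41.6 of Tdpoz3, 5.89 to 14.4 of Tdpoz4, 3.18 to 10.6 of Tdpoz2 and 0 to 0.318 of Tdpoz5. The first steps of this order held within nearly every embryo: per kb Zfp352 exceeded Tdpoz1 in 99.5% of embryos, Tdpoz1 exceeded Tdpoz3 in 97.7%, and Tdpoz3 exceeded Tdpoz4 in 92.3%. Tdpoz4 and Tdpoz2 were the neighbours that did not differ beyond their spread, with Tdpoz4 higher in 152 embryos (68.8%). The order was the same in HFD and LFD embryos.

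The diet contrast was read from a fit across all genes (edgeR quasi-likelihood test, Benjamini-Hochberg adjustment, threshold of 0.05 on the false discovery rate, FDR). Of 14820 genes tested, 2.12% were called, 1.07% higher and 1.05% lower in HFD embryos. Zfp352 and Tdpoz1 to Tdpoz4 passed the filter on low counts, Tdpoz5 did not, and 0 of the 5 tested were called. None had an unadjusted p under 0.05 either (0 of 5), and DESeq2, which called 3.38% of the genes it tested, and limma-voom, which called 2.19%, also called 0 of the 5.

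The fitted differences were small beside their errors. Zfp352 had a log2 fold change (HFD over LFD) of -0.05 ± 0.07 (SE; edgeR FDR = 0.853), with a 95% interval from -0.18 to 0.09. Tdpoz1 had 0.02 ± 0.08 (SE; edgeR FDR = 0.961), with an interval from -0.13 to 0.17. These abundant members had the narrowest intervals of the 5.

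For Tdpoz2 the log2 fold change was -0.14 ± 0.19 (edgeR FDR = 0.841; interval -0.51 to 0.24), for Tdpoz3 -0.06 ± 0.14 (edgeR FDR = 0.926; interval -0.34 to 0.22) and for Tdpoz4 0.04 ± 0.16 (edgeR FDR = 0.960; interval -0.27 to 0.35). The median over all tested genes was 0.00. The difference between the mean log2(CPM + 1) values, which weighs embryos at 0 more heavily, was -0.28 ± 0.15 (SE) for Tdpoz3 (2-sided permutation test, p = 0.0678, unadjusted), -0.16 ± 0.14 for Tdpoz4 (permutation p = 0.281) and -0.02 ± 0.04 for Tdpoz5 (permutation p = 0.707). None of these passed 0.05. For Tdpoz4 the sign is opposite to that of the edgeR fit, and limma-voom gave -0.26 ± 0.20 (FDR = 0.587).

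**Figure D2:**
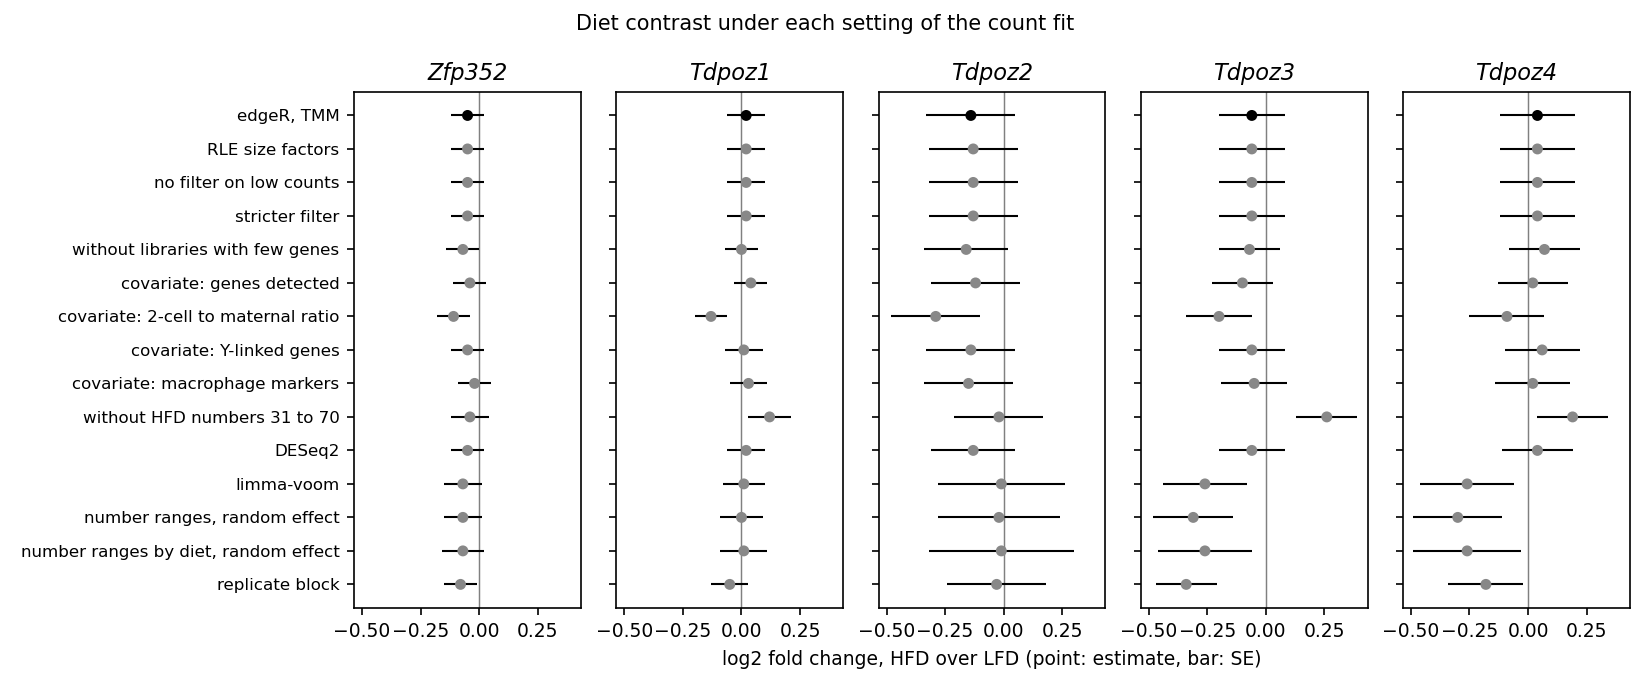
Log2 fold change (HFD over LFD, point) with its SE (bar) for the 5 tested genes under the edgeR fit with TMM scaling (black) and 14 other settings (grey). Zfp352 stays between -0.11 and -0.02, Tdpoz1 between -0.13 and 0.12, and Tdpoz3 moves from -0.34 with embryo number as a replicate block to 0.26 without HFD embryos 31 to 70.

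The low values of Tdpoz3 in HFD embryos were not scattered evenly. Embryos carry a number in their titles, and the 38 HFD embryos numbered 31 to 70, a range chosen after the values were seen, had a median of 13.2 CPM against 35.8 CPM in the other 84 HFD embryos. Their mean log2(CPM + 1) was 3.62 ± 1.36 (SD), the other HFD embryos had 5.16 ± 0.84, and the 39 LFD embryos of the same numbers had 4.81 ± 1.01. Without those HFD embryos the edgeR log2 fold change of Tdpoz3 turned to 0.26 ± 0.13 (FDR = 0.498).

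Tdpoz1 was somewhat lower in the same embryos (median of 155 CPM against 208 CPM in the other HFD embryos), as was Tdpoz2 (4.92 against 8.52 CPM), and Tdpoz4 had a mean of 2.86 against 3.49 on the log2 scale, but Zfp352 was not (8.85 against 8.76). Other genes of the locus that lie within 100 kb were lower too, for example Gm9116 (3.06 against 3.78) and Gm9121 (4.79 against 5.44), while Gm9117 hardly moved (3.68 against 3.79). The summed 2-cell programme was level (12.43 against 12.45). Other lists were lower: sperm transcripts (8.53 ± 0.34 against 8.83 ± 0.38, SD), activators of genome activation (12.37 ± 0.16 against 12.48 ± 0.19) and cumulus markers (4.87 against 4.95). The maternal, repressor, macrophage and SPOP and cullin 3 lists were not lower. These libraries also held fewer genes, 17255 ± 1941 (SD) against 19063 ± 1038 in the other HFD embryos and 18581 ± 1602 in the LFD embryos of the same numbers, and a lower mean total count (5235194 against 6054312). The LFD embryos of the same numbers had a Tdpoz1 mean of 7.40 ± 0.58 (SD) against 7.30 ± 0.56 in these HFD embryos. For Tdpoz2 the means were 2.77 in LFD and 2.43 in HFD embryos, and for Tdpoz4 3.31 and 2.86. In those LFD embryos Gm9116 had 3.71, Gm9121 5.38 and Gm9117 3.50, and Tdpoz9 had 3.87 against 3.84 in these HFD embryos. The labels do not say what a range of numbers stands for, and the part of library depth in the low Tdpoz3 values was not tested.

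**Figure D3:**
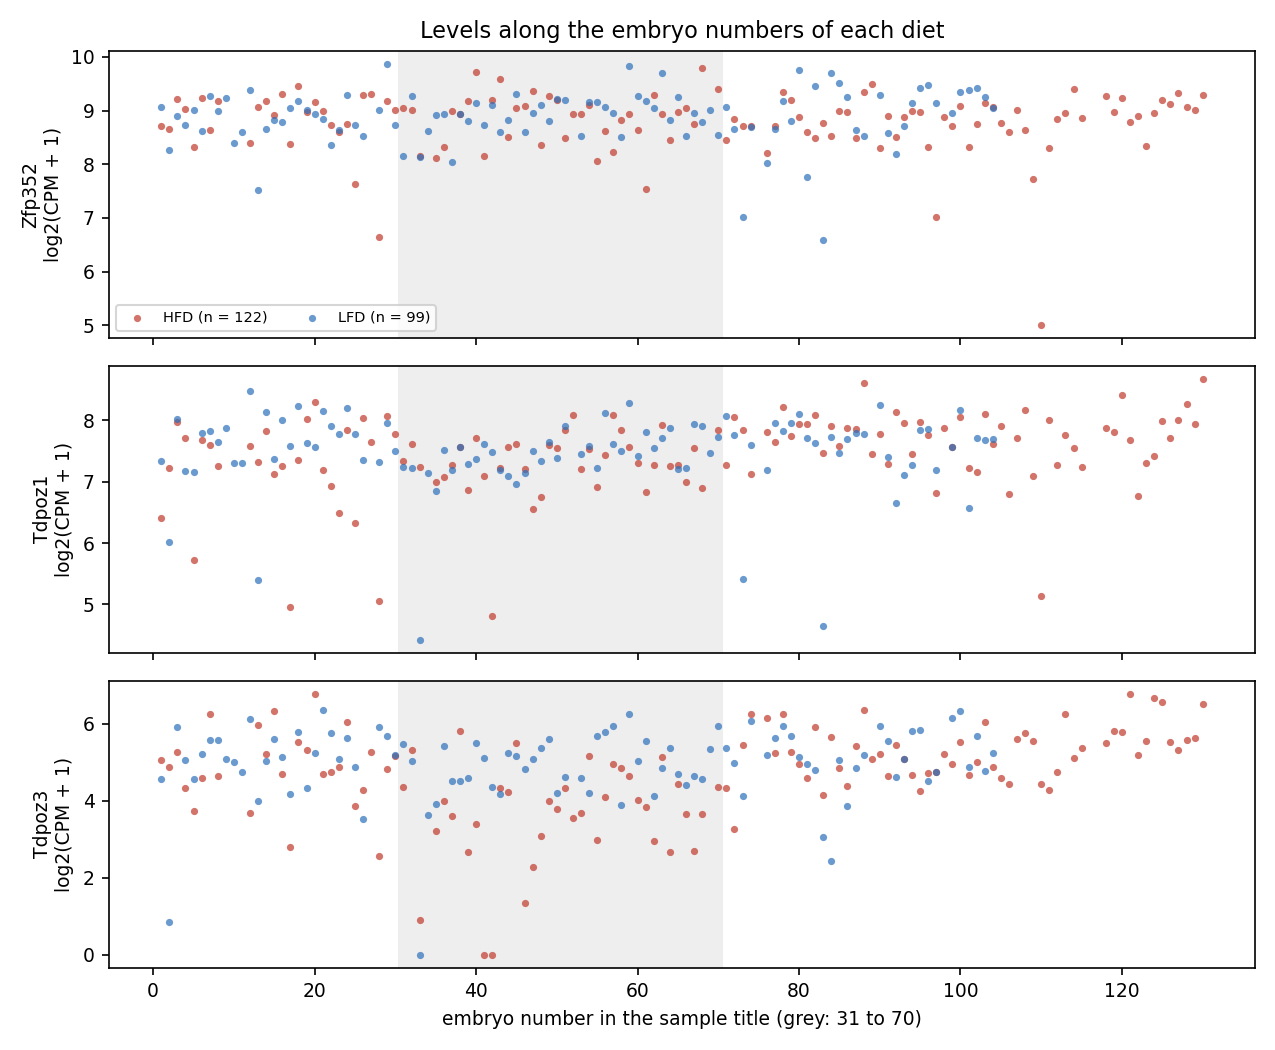
Log2(CPM + 1) of Zfp352, Tdpoz1 and Tdpoz3 in each embryo against the number in its title, HFD in red and LFD in blue, with numbers 31 to 70 shaded. In the shaded range HFD embryos have a mean of 3.62 for Tdpoz3 against 4.81 in LFD embryos, while Zfp352 has 8.85 against 8.92.

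In steps of 10 numbers, the 11 ranges that both diets share gave no steady sign. HFD embryos had the lower mean in 5 of 11 ranges for Zfp352, in 7 for Tdpoz1, in 6 for Tdpoz2 and in 8 for both Tdpoz3 and Tdpoz4. Differences between the means ran from -0.97 to 0.19 for Zfp352, the largest of them in the last shared range, which holds 10 HFD and 4 LFD embryos. For Tdpoz3 they ran from -2.06, in the range from 41 to 50, to 0.71.

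Embryos differed from each other far more than the diets did. Among the tested genes of like abundance, within 0.5 on the log2 scale, 82.6% of 241 had a smaller SD over all embryos than Zfp352, 85.5% of 877 than Tdpoz1 and 95.9% of 2057 than Tdpoz3. The low tail was partly shared. Of the 10 embryos lowest in Zfp352 and the 10 lowest in Tdpoz1, 5 were in both groups of 10.

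HFD embryo 110 is the clearest case. It had 31.1 CPM of Zfp352 and 34.2 CPM of Tdpoz1, and with 11.28 the lowest summed level of the other 2-cell genes, although 19924 genes were detected in it. LFD embryo 83 (95.3 CPM of Zfp352 and 24.1 CPM of Tdpoz1) and HFD embryo 28 (98.8 and 32.2 CPM) were likewise low in both genes, with 16216 and 16421 genes and with 11.72 and 12.04 for the other 2-cell genes. Elsewhere the genes parted. HFD embryo 42 had 584 CPM of Zfp352 but 27.1 CPM of Tdpoz1, LFD embryo 33 had 279 and 20.4 CPM, and both had few genes (11415 and 11364) and no count of Tdpoz3. HFD embryo 17 had 332 and 30.1 CPM, with 17241 genes detected and 12.93 for the other 2-cell genes.

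Correlations across all embryos are given as descriptions, with no test, since all values are shares of a library total and embryos of 1 sire may be alike. Zfp352 and Tdpoz1 had Pearson's r = 0.54 and Spearman's rho = 0.33, with r = 0.45 after leaving out the 2 embryos farthest from the Zfp352 median, and rho was 0.29 within HFD and 0.38 within LFD embryos. Tdpoz1 went closest with Tdpoz3 (r = 0.58, rho = 0.50, r without the 2 farthest 0.53) and also with Tdpoz2 (rho = 0.42) and Tdpoz4 (rho = 0.37). Zfp352 had rho = 0.22 with Tdpoz3, 0.09 with Tdpoz2 and -0.01 with Tdpoz4. The Tdpoz genes thus varied with Tdpoz1 more than with Zfp352.

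Zfp352 and the summed Tdpoz level also differed in their relation to the stage markers. Zfp352 varied with the other 2-cell genes (r = 0.59, rho = 0.54, r = 0.52 without the 2 farthest embryos, rho within diets 0.48 and 0.61) and had rho = 0.29 with maternal transcripts (r = 0.15). The summed Tdpoz level had a weaker relation with the other 2-cell genes (rho = 0.29) and a negative one with maternal transcripts (r = -0.31, rho = -0.36, r = -0.31 without the 2 farthest, rho within diets -0.42 and -0.33). With the ratio of 2-cell to maternal transcripts the summed Tdpoz level had the closer relation (rho = 0.53, within HFD 0.56 and within LFD 0.53). Zfp352 had rho = 0.15 with that ratio (0.07 and 0.25 within the diets). The sum is mostly Tdpoz1, and the Tdpoz genes differed. With maternal transcripts rho was -0.36 for Tdpoz1, -0.24 for Tdpoz2, -0.10 for Tdpoz3, -0.29 for Tdpoz4 and -0.02 for Tdpoz5. With the other 2-cell genes it was 0.29, 0.08, 0.23, -0.03 and 0.02 in the same order. With the number of detected genes, Zfp352 had rho = 0.03, Tdpoz1 0.22 and Tdpoz3 0.36.

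**Figure D4:**
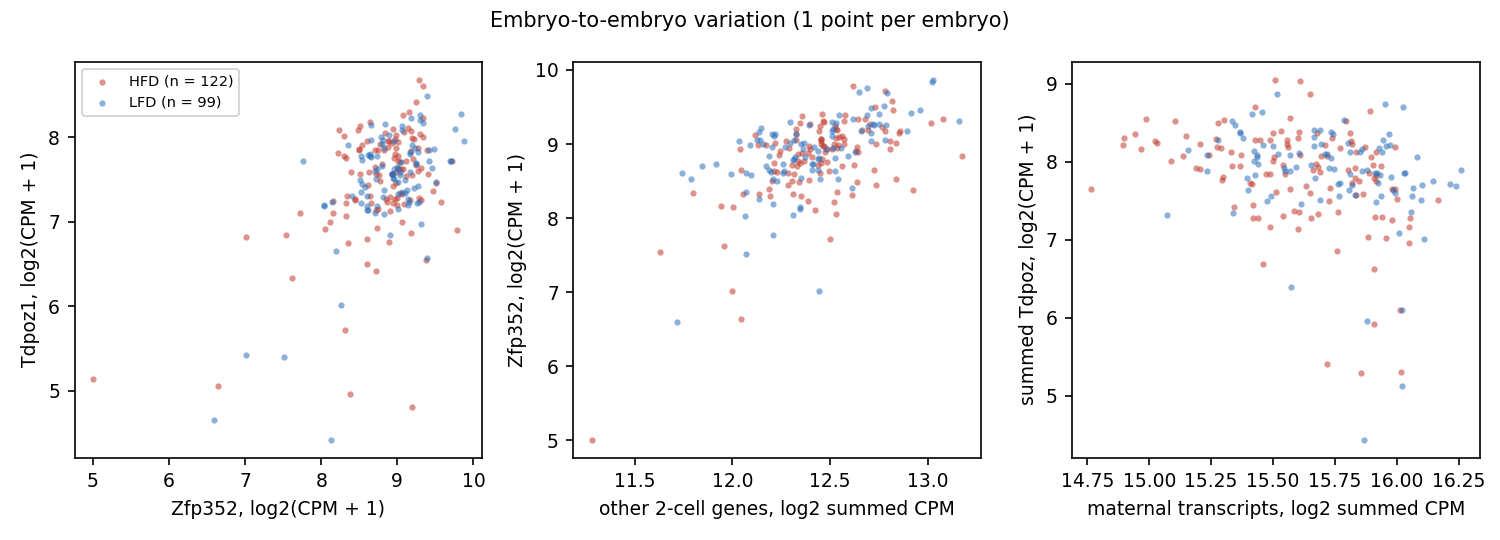
Each point is 1 embryo (HFD red, LFD blue), with Tdpoz1 against Zfp352, Zfp352 against the other 2-cell genes, and the summed Tdpoz level against maternal transcripts, all on log2 scales of CPM. Spearman's rho over all embryos is 0.33, 0.54 and -0.36 from left to right. The diets overlap in all panels but do not coincide in the last. There the mean of maternal transcripts is 15.60 for HFD and 15.73 for LFD embryos, and the lowest values are 14.76 and 15.07.

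Among 14815 other tested genes, those whose levels followed Zfp352 most closely over the embryos were Gm5117 (rho = 0.57), Gm5543, Gm9113 and Spopfm3 (0.55 each) and Zfp353-ps (0.54), where the middle 95% of genes had rho from -0.23 to 0.26. Gm9113 lies inside the span of the Tdpoz genes, at chr3:93873369-93874386, and Gm5543 (chr3:94157631-94158721) and Spopfm3 (chr3:94196714-94199802) lie beyond Tdpoz5 on the same chromosome. Of the 31-base stretches of Zfp352, 21.5% occur in transcripts of other genes, and the pseudogene Zfp353-ps holds more of them than any other gene. No 150-base stretch of Zfp352 occurs in another gene's transcripts. For the summed Tdpoz level the closest were AA414992 (0.73), Gm11544 (0.67) and Gm5590, Gm12622 and Zfp296 (0.66 each), none of them on chromosome 3, where the middle 95% of genes had rho from -0.31 to 0.35. None of these 10 genes was called between the diets.

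The neighbours of the Tdpoz genes differed in which of the levels they followed. Of the 20 other genes within 100 kb of their span, 9 had a mean count of 10 or more and were tested, 0 were called, and their log2 fold changes ran from -0.26 to 0.26. Gm9113 and Gm9121 followed Zfp352 (rho = 0.55 and 0.53) more than the summed Tdpoz level (0.27 and 0.33), whereas Tdpoz9 (0.64), Gm5852 and Gm9117 (0.57 each) followed the Tdpoz level and had rho of 0.21, 0.21 and -0.02 with Zfp352. Gm9116 (0.54) and Gm9124 (0.52) also followed the Tdpoz level more than Zfp352 (0.23 and 0.24). Gm5541 (0.36 with Zfp352 and 0.29 with the Tdpoz level) and Gm5773 (0.28 and 0.38) lay between. Within 100 kb of Zfp352 there was 1 other gene, Gm12629, with a median of 1.10 CPM.

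The genes around this programme were counted from lists chosen with earlier results of these data known. Of 50 tested genes of the 2-cell programme 0 were called, with a median log2 fold change of 0.09, and of 27 tested activators of genome activation, such as the Obox, Dppa and Nfy genes, 0 were called (median 0.07). Of 13 tested genes of the SPOP and cullin 3 machinery, in which proteins of the Tdpoz build could act, 0 were called (median 0.04). These shares stand beside the 2.12% of all genes called.

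Of 27 tested genes listed as repressors of MERVL and the 2-cell programme, most of them chromatin factors, 1 was higher and 1 lower in HFD embryos. Rif1, a telomere and replication timing factor, rose by 0.24 ± 0.06 (SE; edgeR FDR = 0.0104) on the log2 scale, from a mean of 8.26 ± 0.44 (SD) in LFD to 8.49 ± 0.45 in HFD embryos, but by 0.13 ± 0.06 (FDR = 0.489) without HFD embryos 31 to 70. Lin28a, an RNA-binding protein that acts on the let-7 precursor, fell by 0.38 ± 0.07 (FDR = 4.12e-04), from 6.75 ± 0.62 to 6.33 ± 0.71, and was called under all 14 other settings of the fit. Of 29 tested maternal transcripts 1 was lower, Tle6, a part of the subcortical maternal complex (-0.23 ± 0.07, edgeR FDR = 0.0319, and -0.16 ± 0.07, FDR = 0.289, without HFD embryos 31 to 70). Tle6 was called under 10 of the 14 other settings and also missed the threshold with the ratio of 2-cell to maternal transcripts (FDR = 0.111) or Y-linked genes (FDR = 0.0546) as a covariate and with ranges of 10 numbers of each diet as a random effect (adjusted p = 0.0863 with an estimated correlation). Tle6 is itself part of the maternal sum in that ratio, so its weakening under that covariate is partly built in. For each of these 3 genes the difference was smaller than the SD within a diet.

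The marker lists for other sources of RNA gave 1 call. Of 4 tested macrophage markers Cd68 was higher in HFD embryos by 1.55 ± 0.30 (edgeR FDR = 2.65e-04), although its mean log2(CPM + 1) was 2.17 ± 1.71 (SD) in HFD and 2.01 ± 1.04 in LFD embryos, and limma-voom gave -0.05 ± 0.31 (FDR = 0.967). Of the other lists, 0 of 3 cumulus markers, 0 of 5 Y-linked genes and 0 of 1 sperm transcripts tested were called. The summed Y-linked level had a median of 5.20 in HFD and 3.57 in LFD embryos (means 3.76 ± 2.73 and 2.99 ± 2.91, SD). This difference was not tested. Zfp352 had rho = -0.43 with the summed macrophage markers in HFD embryos and 0.02 in LFD embryos. With that sum as a covariate its log2 fold change was -0.02 ± 0.07.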

How the data were processed

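RNA of 221 single early 2-cell embryos was measured, and embryos were grouped by the diet given in the labels (122 HFD, 99 LFD). The deposited table holds raw counts for each gene. To make it, the authors sequenced read pairs; adaptors were removed with Trim Galore 0.6.6, reads were aligned with STAR 2.7.10a to build GRCm38 with the mitochondrial sequence replaced, and featureCounts 2.0.3 counted them over exons of Ensembl release 102 at strand setting 2, leaving out reads with several alignments or genes. Smart-seq2 does not mark strand, so this setting drops part of the reads of every gene. Both reads of a pair were counted, and 65.8% of the counts above 0 were even.

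The 6 members were read from a fit across all genes with edgeR 4.0.16 (quasi-likelihood test, TMM, filterByExpr by diet, Benjamini-Hochberg adjustment, FDR threshold of 0.05) in R 4.3.3, with DESeq2 1.42.0 and limma 3.58.1 as alternatives. The fit was tested on simulated data. A log2 fold change above 0 means a higher level in HFD embryos, and its SE was derived from the F statistic. CPM are counts in each 1000000 of all counts of an embryo; 1 was added before taking logs, and 0.5 to the summed CPM of a list. Single differences of means were compared with 100000 permutations. Depth per embryo is given with the results, and precision rests on the spread between embryos.

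The members and the gene lists were chosen with earlier results of these data known. Named genes are the members, the list genes called (at most 5 per list, by p), the genes within 100 kb of the members (at most 10, by mean count), the 5 genes with the highest Spearman correlation with Zfp352 and with the summed Tdpoz CPM, and the closest copy of each member. Copies, coding bases and exon structure were read from GENCODE transcripts of the same build, coding sequences were aligned with MAFFT 7.526, and promoter windows are those of RefSeq (GRCm38.p6), which matched 4 of the 6 members. Levels, permutations and correlations were computed in Python 3.11.15 (scipy 1.17.1, numpy 2.4.6, pandas 2.3.3), and plots were drawn with matplotlib 3.10.9. Every sample column was used. Embryos were not divided by sex or by clusters of transcripts, as the labels give neither. The paper sexed them by Y-linked expression and parted male HFD embryos into clusters, so the contrast here pools its groups.

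Alternatives were RLE size factors, other tools, no filter or a stricter one (10 counts in 50% of embryos), covariates (genes detected, ratio of 2-cell to maternal transcripts, Y-linked genes, macrophage markers), leaving out libraries, and embryo number as a block. The numbers do not pair the embryos: over 94 numbers that both diets hold, the correlation of deviations from the diet means had a median of 0.00402 (from -0.268 to 0.247).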

Additional observations from a re-analysis of the deposited data

How the results depend on the processing

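Of the 5 members tested, 0 were called under each of 14 other settings of the count fit, and the lowest FDR was 0.118, for Tdpoz3 with a replicate block. Zfp352, Tdpoz2 and, but for 1 setting, Tdpoz3 kept their sign. Tdpoz3 turned to 0.26 without HFD numbers 31 to 70. Tdpoz1 (0.02) turned to -0.00 without the 8 libraries with few genes, to -0.13 with the ratio of 2-cell to maternal transcripts as a covariate, to -0.00 with ranges of 10 numbers as a random effect and to -0.05 with the replicate block. Tdpoz4 (0.04) turned to -0.09 with that ratio as a covariate, -0.26 with limma-voom, -0.30 with ranges of 10 numbers, -0.26 with ranges of each diet and -0.18 with the replicate block. The cause was not tested. Pseudocounts of 0.1 and 5 gave Tdpoz4 a difference of mean log2 values of -0.31 and -0.06 (-0.16 with 1) and Tdpoz3 one of -0.32 and -0.21 (-0.28 with 1). Leaving out single embryos gave log2 ratios of mean CPM from -0.03 to 0.04 for Tdpoz4 (0.01 with all), from -0.02 to 0.01 for Tdpoz1 and from -0.10 to 0.08 for Tdpoz5 (-0.01 with all; -0.10 without HFD embryo 27 and 0.08 without LFD embryo 88), and kept the sign of Zfp352, Tdpoz2 and Tdpoz3. The Tdpoz5 ratios rest on counts at or under the floor in most embryos.

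The count of all genes called (314) became 7030 with no filter, 560 without the libraries with few genes, 175 without HFD numbers 31 to 70, 80 with ranges of each diet as a random effect and 806 with embryo number as a replicate block; the last block rests on a number that pairs nothing. HFD numbers 31 to 70 and the ranges of each diet were chosen after seeing the data. Cd68 turned to -0.13 with the macrophage covariate and to -0.05 with limma-voom and with both fits by number ranges. Cd68 is itself part of the macrophage sum, so the change under that covariate is largely built in.

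Sire and date are not given, so the spread between sires is not in these p-values, SEs or intervals. Reads of Tdpoz5 and Tdpoz7, and those from the stretches that the other Tdpoz genes share with copies, cannot be told apart. Tdpoz5 was fitted with no filter only, and its other planned settings gave no value.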
